A study of Mus musculus with 30 samples.

Results

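Regulatory T cells (Treg) that lacked the transcription factor BATF were compared with wild-type (WT) Treg for the accessibility of their chromatin. The comparison used 4 of the 30 samples of the series, 2 libraries of BATFKO Treg and 2 of WT Treg, and took in all 69316 peaks of the table of 26 libraries. Both groups were CD4+hCD2+ cells sorted fresh from lymph nodes and spleen of C57BL6/J mice whose Foxp3 locus carries an IRES-hCD2 reporter (Foxp3-IRES-hCD2), and the BATFKO mice were in addition Batf-/-. The sort did not divide resting from effector Treg. The labels give no age, do not say which cells the deletion affects beyond the genotype, and do not say that the 2 libraries of a group came from separate mice, so p-values measure the spread between libraries, which may be technical.

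BATF is a basic leucine zipper factor of the AP-1 family. It has no activation domain of its own and binds DNA as a dimer with a JUN protein, often beside an interferon regulatory factor such as IRF4. In T cells it is induced by antigen receptor signals, and it is known for its part in the differentiation of type 17, follicular helper and effector CD8 T cells and of effector and tissue Treg. ATAC-seq measures how often a transposase cuts a stretch of DNA, and a peak is a stretch that was cut often because its chromatin was open.

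Other libraries of the table served as a view of the same peaks in cells that the comparison did not use. They were WT central Treg (cTreg, sorted as CCR7hi and CD44lo among other markers), effector Treg (eTreg, sorted as CCR7lo), naive T cells (Tnaive) and effector T cells (Teff) of the hCD2- fraction, and conventional T cells (Tconv, CD4+hCD2-), all from Foxp3-IRES-hCD2 mice. The others were Treg of Foxp3KO-IRES-hCD2.Batf-/- mice (DKO Treg), which had received a mock retrovirus or one with Foxp3, BATF or both and were sorted as CD4+hCD2+ cells positive for CD45.2, GFP and Thy1.1 and negative for CD45.1. Each of these groups had 2 libraries. Of 18 libraries that the deposited tables share, 12 carry different group names in the other table, among them those named cTreg, eTreg, Tnaive and Teff here. WT Treg, BATFKO Treg and Tconv are named alike in both.

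Marker peaks were examined before those names were used. The Foxp3 peak at chrX:7583922-7584322 was open in the Treg subsets, with scores of 363 and 381 (eTreg) and 370 and 435 (cTreg). It was near closed in the other cells, at 1.28 and 9.07 (Tnaive) and 7.83 and 7.84 (Teff). The 20 peaks of Ccr7, a homing receptor gene of resting cells, summed to 700 and 706 in eTreg against 1782 and 2077 in cTreg, and to 782 and 971 in Teff against 2569 and 2770 in Tnaive. These values have the order that the names imply. At the same Foxp3 peak WT Treg scored 365 and 392, BATFKO Treg 316 and 336, and Tconv 4.90 and 13.6. Both Treg groups were sorted on hCD2 reported from the Foxp3 locus, so an open site there is what the sort selects for.

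The deleted gene was checked first. The peak over the Batf promoter (chr12:85686411-85686811) scored 265 and 312 in WT Treg and held no read in either BATFKO library, a loss of at least 106-fold when each BATFKO library is given a floor of 3 reads. A second peak inside Batf (chr12:85687819-85688219) scored 72.1 and 75.5 in WT Treg and again held no read in BATFKO Treg, at least 27.1-fold lower. The other 6 peaks assigned to Batf were not called, except 1 of low score outside the gene that was higher with quantile scaling. Among them the peak at chr12:85705486-85705886 scored 211 and 229 in WT Treg and 294 and 205 in BATFKO Treg. Reads were thus missing from the start of the gene and present over its later part. The promoter window of Batf, from 250 bases before to 50 bases after its start (chr12:85686470-85686769, plus strand), is shown because this is the stretch with no read in BATFKO Treg. Sequences are those of RefSeq for GRCm38, which is mm10, and capitals mark matches to the AP-1 motif, of which this window has none.

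Batf promoter: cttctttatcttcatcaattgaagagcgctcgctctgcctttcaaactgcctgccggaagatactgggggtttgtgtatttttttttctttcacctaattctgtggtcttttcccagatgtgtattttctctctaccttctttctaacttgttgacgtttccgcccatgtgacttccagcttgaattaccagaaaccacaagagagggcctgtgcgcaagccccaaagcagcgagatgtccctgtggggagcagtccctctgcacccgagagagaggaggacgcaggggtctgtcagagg

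Outside Batf, 12 promoter windows were overlapped by at least 150 bases of a peak that fell. The AP-1 motif, TGANTCA on either strand, was in the part inside the peak of 5 of those 13 windows (38.5%, Batf counted), against 296 of 7583 windows that lay in any peak (3.90%) and 1486 of all 21263 windows (6.99%). The 5 are shown with 30 bases on either side of the first match, each on the strand of its gene, since they are the promoters where a fall and this motif coincide. They belong to Tnfsf13b, which encodes the B cell survival factor BAFF (chr8:10006476-10006542), to Mmp10, a matrix protease gene (chr9:7502249-7502315), to Rdh1, a retinol dehydrogenase gene (chr10:127759579-127759645), to Emp1, an epithelial membrane protein gene (chr6:135362756-135362822), and to Ctla2b, a protease inhibitor gene (chr13:60897554-60897620, minus strand).

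Tnfsf13b: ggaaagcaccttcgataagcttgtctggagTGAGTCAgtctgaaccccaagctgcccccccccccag

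Mmp10: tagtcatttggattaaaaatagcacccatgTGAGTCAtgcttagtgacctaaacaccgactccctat

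Rdh1: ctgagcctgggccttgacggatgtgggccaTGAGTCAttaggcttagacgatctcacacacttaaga

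Emp1: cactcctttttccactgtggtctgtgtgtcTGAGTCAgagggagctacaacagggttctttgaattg

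Ctla2b: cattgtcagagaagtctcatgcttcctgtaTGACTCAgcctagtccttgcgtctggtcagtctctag

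The peaks over these promoters fell by 2.60 on the log2 scale at Tnfsf13b, 2.53 at Mmp10, 2.09 at Rdh1, 1.40 at Emp1 and 0.83 at Ctla2b. A match is a description of the letters and not a site shown to be bound, and windows in peaks were searched only where they lay inside the peak (a median of 286 bases). Windows in peaks higher in eTreg than cTreg held the AP-1 motif in 58 of 801 cases (7.24%). AP-1 was not the only motif with a larger share in the 13 windows: the forkhead motif (TGTTTAC, either strand) was in 3 (23.1%) against 2.06% of windows in peaks, and the Runx motif (TGTGGT, either strand) in 3 against 11.0%. A composite of the IRF and AP-1 motifs was found in none of the 13 windows and in 7 of the 7583. The sequences of peaks away from promoters were not analysed here.

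In BATFKO Treg far more peaks lost accessibility than gained it. At an adjusted p under 0.05 (limma on log2(score + 1), Benjamini-Hochberg over all peaks), 1032 peaks were called (1.49%). Of these, 989 were lower in BATFKO Treg (1.43% of all peaks) and 43 higher (0.062%). The median change over all peaks was 0.03. The changes were large: 927 of the 989 lower peaks fell by more than 1 on the log2 scale, 490 by more than 2, 157 by more than 3 and 31 by more than 4, with a median of -1.98. In bulk cells, fewer cells of a Treg subset and less accessibility per cell cannot be told apart. In 375 of them (37.9%) the mean BATFKO score was under 10, and in 807 (81.6%) under 50, beside a median score near 47 for all peaks in each library.

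**Figure D1:**
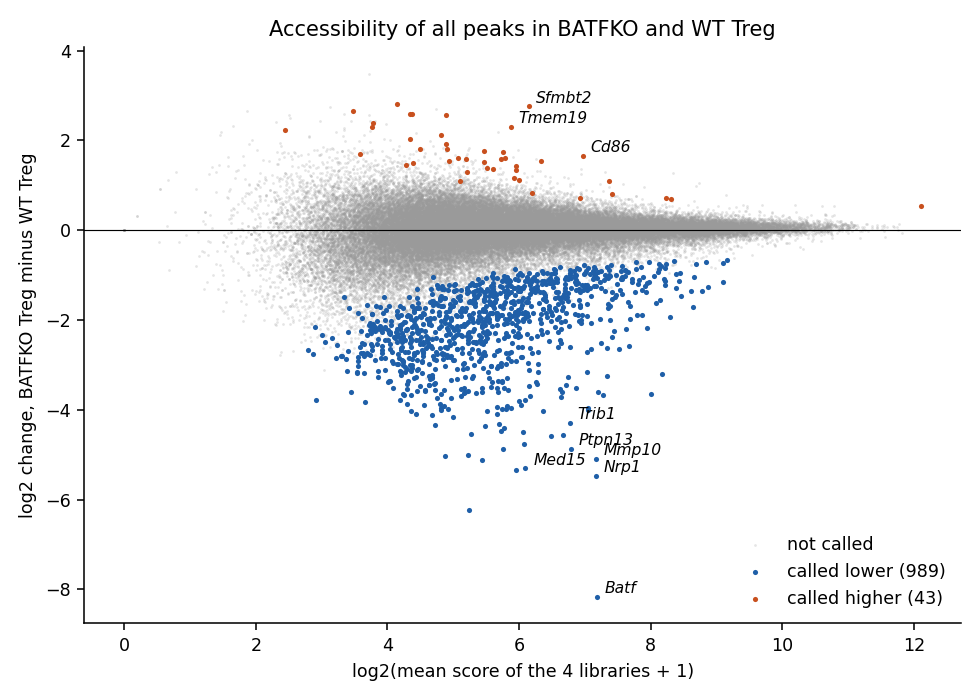
Log2 change of each peak (BATFKO Treg minus WT Treg, from scores with 1 added) against the log2 mean score of the 4 libraries; grey points were not called, blue points were called lower (989) and orange points higher (43). Lower peaks reach far below 0, with the Batf promoter peak at -8.17, and have mean WT scores from 11.0 to 757, while the higher peaks are few.

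The groups did not overlap at any of the 1032 called peaks, but neither did they at 38.2% of all peaks. WT library 1 was above WT library 2 at 805 of the 989 lower peaks, against 34862 of all 69316, and BATFKO library 1 was above library 2 at 33 of the 43 higher peaks. Without WT Treg library 1, 333 peaks were called lower and 14 higher. Without BATFKO Treg library 2, the counts were 577 lower and 82 higher. With quantile scaling the share of higher peaks among the calls was 20.1% (504 higher, 2007 lower), against 4.17% as reported.

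Lower peaks lay away from gene ends. Of the 989, 38 (3.84%) lay within 1 kb of an end of a protein-coding gene, against 19.2% of all peaks. Inside a gene and over 1 kb from its ends lay 51.4% of them (45.4% of all peaks), 35.1% were 1 to 100 kb outside a gene (29.4%), and 9.71% were over 100 kb from any gene (5.96%). Peaks are named below for the nearest protein-coding gene within 100 kb, which need not be the gene they act on.

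The largest falls by rule, 15 peaks of different genes with a mean score above the median of all peaks, took sites from clearly open to almost closed. The Nrp1 peak at chr8:128549736-128550136 lies 44260 bases outside the gene of neuropilin 1, a receptor found on many thymus-derived Treg. It scored 314 and 247 in WT Treg and 7.20 and 3.79 in BATFKO Treg, a change of -5.48 (SE 0.26, adjusted p = 1.9e-14). A peak 55382 bases from Rps29, a ribosomal protein gene (chr12:69101940-69102340), scored 144 and 96.0 against 2.77 and 1.26 (-5.34, SE 0.47, adjusted p = 1.2e-08). Both groups were far apart at these sites, with BATFKO scores worth a handful of reads.

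A site inside Med15, which encodes a subunit of the Mediator complex (chr16:17694806-17695206), scored 138 and 127 in WT Treg and 2.21 and 2.53 in BATFKO Treg (-5.31, SE 0.48). The annotation used gives gene bodies only, so exons and introns were not told apart. Within 1 kb of an end of Mmp10 (chr9:7509835-7510235), scores were 308 and 248 against 6.64 and 7.58 (-5.10, SE 0.37). Mmp10 thus had a lower peak near an end of the gene besides that over its promoter.

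Among the other large falls was a peak 23544 bases from Cd83, which encodes a surface protein of activated lymphocytes and dendritic cells. It scored 116 and 136 in WT Treg against 3.32 and 6.31 in BATFKO Treg (-4.49). A site inside Ptpn13, a tyrosine phosphatase gene, scored 244 and 181 against 9.96 and 3.79 (-4.86). A site 74020 bases from Trib1, a gene of the Tribbles pseudokinases, scored 235 and 179 against 13.8 and 6.31 (-4.30). The remaining peaks of the 15, at Pkdcc, Ppp4r4, C2cd2, Gm4846, Cpox, Hsbp1l1 and Tram2, changed by -4.87 to -4.03. In each of them both WT scores were at least 72.5 and both BATFKO scores at most 13.9.

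**Figure D2:**
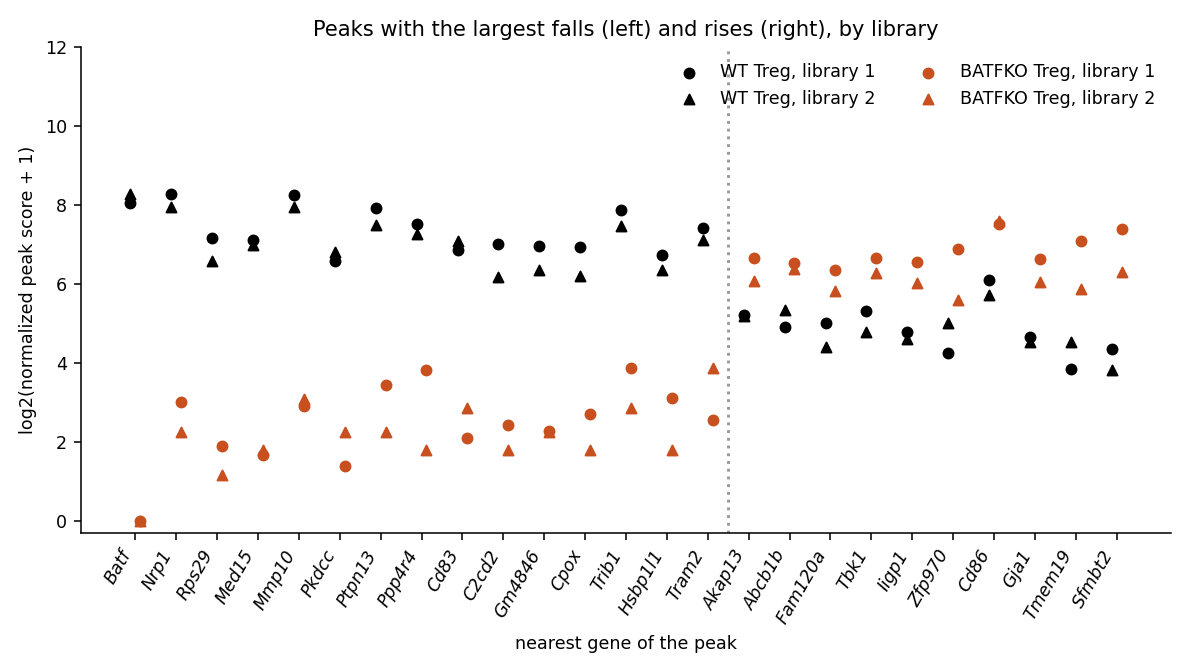
Normalized peak scores, as log2(score + 1), of the peaks with the largest falls (left of the dotted line) and rises (right) in each WT Treg (black) and BATFKO Treg (orange) library; circles are library 1 and triangles library 2. The peaks were chosen for size and for groups that do not overlap. The falls end near 0 to 4 in BATFKO Treg, and BATFKO library 1 lies above library 2 at 9 of the 10 rises.

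Some genes had several lower peaks. The 989 peaks had 727 nearest genes, of which 123 had at least 2 lower peaks and 10 at least 4. Genes with many peaks can hold several by number alone, and 1.43% of all peaks were lower. Whether falls gather beyond that was not tested. At Nrp1, 5 of 38 peaks fell, all 5 outside the gene and within 21094 bases of each other, with changes from -5.48 to -2.40. The other Nrp1 peaks had a median change of -0.11. At Gtsf1l, a gene of the gametocyte-specific factor family, 5 of 6 peaks fell, led by the peak at chr2:163103246-163103646, which scored 495 and 445 in WT Treg and 58.1 and 22.7 in BATFKO Treg (-3.65). The called losses at Nrp1 stood in 1 cluster of sites, while at Gtsf1l they took in 5 of its 6 peaks.

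Bach2, which encodes a leucine zipper repressor that competes for AP-1 sites and restrains effector differentiation, showed another pattern. Of its 66 peaks 6 fell, spread over 408932 bases, by 1.05 to 2.48 on the log2 scale. The largest of these falls was at chr4:32179701-32180101, with 73.3 and 75.5 in WT Treg and 13.8 and 11.4 in BATFKO Treg. The Bach2 site at chr4:32588232-32588632 scored 288 and 227 against 94.7 and 87.1. The median change of the Bach2 peaks not called was -0.01.

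At Ttc39c 6 of 11 peaks fell, at Asap1, which encodes an ARF GTPase-activating protein, 6 of 45, and at Itpr1, which encodes an inositol trisphosphate receptor that releases calcium from the endoplasmic reticulum, 5 of 47. At Gpr15, a homing receptor gene known for guiding T cells to the large intestine, 4 of 6 fell. The Gpr15 peak at chr16:58701813-58702213 scored 615 and 422 in WT Treg and 51.5 and 56.8 in BATFKO Treg (-3.21, SE 0.25, adjusted p = 1.2e-09).

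**Figure D3:**
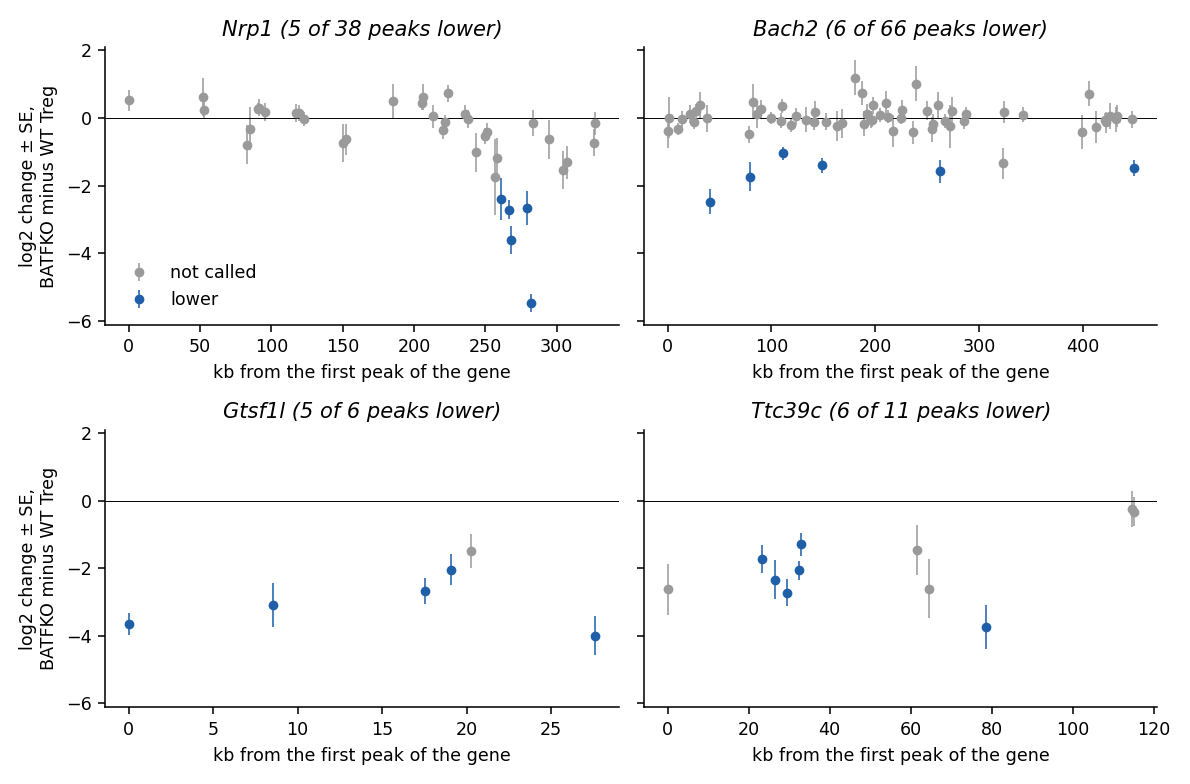
Log2 change ± SE of every peak assigned to Nrp1, Bach2, Gtsf1l and Ttc39c against its distance in kb from the first peak of the gene; blue points were called lower. The lower peaks of Nrp1 stand together (5 of 38), those of Bach2 are scattered among level ones (6 of 66), and most peaks of Gtsf1l (5 of 6) and Ttc39c (6 of 11) fell.

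Gene lists were read peak by peak, beside the 1.43% of all peaks that fell. Among BATF, its AP-1 and IRF partners and BACH2, 9 of 183 peaks fell (4.92%). Of these, 6 were at Bach2, 1 at Jun and 2 at Batf, where the deletion itself leaves no read. The Jun peak, 44530 bases from the gene of a dimer partner of BATF (chr4:95096752-95097152), scored 106 and 77.6 in WT Treg and 15.5 and 7.58 in BATFKO Treg (-2.95). No Irf4 peak was called. The one with the smallest p scored 77.0 and 83.7 against 68.1 and 54.3 (-0.39, SE 0.27, adjusted p = 0.86). The median change over the list was 0.07.

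Genes that define Treg had called peaks at some sites, with none at the Foxp3 locus, on whose reporter the cells were sorted. Of 202 peaks of the Treg identity list, 11 fell (5.45%) at Cd83, Ctla4, Ikzf2, Nrp1 and Socs2, and none rose. With edgeR 17 were lower and with DESeq2 16, at further genes of the list too. The peak inside Ctla4, which encodes an inhibitory receptor that Treg need (chr1:60913328-60913728), scored 561 and 643 in WT Treg and 127 and 264 in BATFKO Treg (-1.71, SE 0.27, adjusted p = 0.00023). At Ikzf2, the gene of the Treg factor Helios, 2 of 41 peaks fell, and the stronger (chr1:69544222-69544622) went from 554 and 476 to 210 and 165 (-1.46). None of the 4 Foxp3 peaks was called, with changes from -0.22 to 0.19 and SE from 0.27 to 0.50. Since the sort on hCD2 selected cells with an active Foxp3 locus, these values do not show whether BATF matters there. No peak of Il2ra, the IL-2 receptor alpha chain gene, was called either. Its peak with the smallest p scored 58.7 and 49.0 against 72.5 and 80.8 (0.51, SE 0.28).

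In the effector Treg list 10 of 247 peaks fell (4.05%), at Cd44, Havcr2, Icos, Il10, Maf, Prdm1, Tigit and Tnfrsf9. With edgeR 17 were lower and with DESeq2 16, at further genes of the list too. The Maf peak, 19910 bases from the gene of the factor c-Maf, scored 104 and 98.0 in WT Treg and 13.8 and 6.31 in BATFKO Treg (-3.29, SE 0.37). The Il10 peak, 8910 bases from the gene of the suppressive cytokine IL-10, scored 101 and 86.8 against 32.7 and 20.2 (-1.83, SE 0.25). It was the 1 lower peak of 13 at Il10, and edgeR and DESeq2 each called 1 other Il10 peak higher. The 13 peaks summed to 945 and 863 in WT Treg and 1063 and 571 in BATFKO Treg, so the groups overlapped. A peak inside Prdm1, the gene of the effector regulator Blimp-1, scored 79.4 and 61.2 against 23.2 and 20.2 (-1.64, SE 0.31). The Icos peak scored 51.3 and 47.0 against 12.7 and 22.7 (-1.47, SE 0.27). The Prdm1 and Icos calls were lost without WT Treg library 1, and that of Icos also without BATFKO Treg library 1.

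Tigit, the gene of an inhibitory receptor of effector Treg, held both kinds of site. Its peak at chr16:43694050-43694450 fell from 106 and 101 to 39.9 and 20.2 (-1.83). The Tigit peak at chr16:43661513-43661913 scored 101 and 96.0 in WT Treg against 93.0 and 55.6 in BATFKO Treg (-0.45, SE 0.31, adjusted p = 0.86). Of the other 13 Tigit peaks none was called.

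Tissue Treg genes showed 4 lower peaks of 160 (2.50%), 3 of them at Glrx, the gene of glutaredoxin, and 1 at Nfil3, a leucine zipper factor gene. With edgeR 9 were lower and with DESeq2 7. The call at Nfil3 was lost without WT Treg library 2 or BATFKO Treg library 2. The median change of this list, -0.17, was the lowest of the 13 pathway lists. The Glrx peak at chr13:75831696-75832096 scored 97.8 and 90.8 in WT Treg and 18.8 and 16.4 in BATFKO Treg (-2.36). At Klrg1, a receptor gene of terminally differentiated cells, the peak with the smallest p scored 31.8 and 29.6 against 8.30 and 8.84 and missed the threshold (-1.73, SE 0.46, adjusted p = 0.051 with limma). It was called lower with edgeR (adjusted p = 0.0071) and DESeq2 (adjusted p = 0.0073), and the adjusted p over all alternatives ran from 0.0028 to 0.73. Rora and Gata3, factor genes of tissue Treg, had no called peak with limma, with changes of -1.16 (SE 0.37) and -0.75 (SE 0.48) at the peaks with the smallest p. The Rora peak was called lower with edgeR and with quantile scaling.

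Helper programs of conventional T cells were read as well, of which the type 17 and follicular helper programs are known to need BATF there. Of 97 peaks of the type 17 list 5 fell (5.15%), at Ahr, Il17a and Il6st, while edgeR called 7 lower and DESeq2 6. The call at Il6st was lost without WT Treg library 1, WT Treg library 2 or BATFKO Treg library 1. The Il17a peak, 9383 bases from the cytokine gene, scored 81.9 and 52.1 in WT Treg and 10.5 and 6.31 in BATFKO Treg (-2.85, SE 0.49), a call that was lost without WT Treg library 1. The Ahr peak with the larger fall, near the gene of the aryl hydrocarbon receptor, scored 52.5 and 21.4 against 1.11 and 2.53 (-3.67, SE 0.58). Of 131 follicular helper peaks 4 fell (3.05%), at Cxcr5, Il21 and Tox2, while edgeR called 7 lower and DESeq2 6. A peak within 1 kb of an end of Tox2 scored 336 and 282 against 161 and 125 (-1.11, SE 0.22). That call was lost without WT Treg library 1 or BATFKO Treg library 2, and the call at Il21 without either of these or BATFKO Treg library 1. The call at Cxcr5 was lost in each leave-out except that of BATFKO Treg library 2. In the type 2 list 1 of 33 peaks fell (3.03%), at Il9 (266 and 239 against 126 and 145). In the type 1 list 1 of 134 fell (0.75%), below the share of all peaks, at Stat4 (47.7 and 30.6 against 9.41 and 8.84). Both calls were lost whichever library was left out.

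Naive and central T cell genes had 7 lower peaks of 414 (1.69%), close to the share of all peaks, and none higher. They included peaks at Ets1, Foxp1, Lef1 and S1pr1, the last lost in each leave-out except that of BATFKO Treg library 2. The Ets1 peak inside the gene (chr9:32661599-32661999) scored 222 and 152 in WT Treg and 32.7 and 26.5 in BATFKO Treg (-2.60, SE 0.26). In eTreg the same Ets1 site scored 363 on average, against 64.3 in cTreg, so this site of a gene on the naive list was one that effector cells open. At Tcf7 and Ccr7 the peaks with the smallest p scored 51.3 and 76.6 against 88.6 and 101 (0.59, SE 0.24) and 25.7 and 29.6 against 56.5 and 48.0 (0.89, SE 0.30), and neither passed with limma, while the Ccr7 peak was called higher with quantile scaling.

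In the chemokine receptor and adhesion list 8 of 133 peaks fell (6.02%) and 1 rose, with falls at Ccr1, Gpr15 and Itgb1 among them and the rise at another Itgb1 peak. The Ccr1 peak 25169 bases from this inflammatory chemokine receptor gene scored 150 and 127 in WT Treg and 22.1 and 6.31 in BATFKO Treg (-3.42, SE 0.43). Among costimulatory receptors and ligands 2 of 208 peaks fell with limma, at Cd40lg and Cd70, and 1 rose, at Cd86. Both edgeR and DESeq2 called another Cd86 peak lower and a Cd80 peak higher in addition. The calls at Cd40lg and Cd70 were lost without WT Treg library 1, and that at Cd70 also without BATFKO Treg library 1. Neither the 240 peaks of regulators that the T cell receptor induces nor the 172 peaks of cytokine and STAT signalling held a called peak with limma, where 13 and 13 peaks were lower and 3 and 6 higher at an unadjusted p under 0.05. In the former neither edgeR nor DESeq2 called a peak, and in the latter edgeR called 3 lower, at Il10rb and Tgfbr2, and DESeq2 2, at Tgfbr2. In the former the Nfkb1 peak inside the gene scored 665 and 629 against 370 and 351 (-0.84, SE 0.26, adjusted p = 0.13 with limma), and was called lower with quantile scaling, with the 4 libraries alone and in the other deposited table.

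The 43 higher peaks were smaller in number and in change, with a median of 1.59, and 37 of them rose by more than 1 on the log2 scale. A peak 28308 bases from Sfmbt2, a Polycomb-related gene, scored 19.6 and 13.3 in WT Treg and 168 and 78.3 in BATFKO Treg (2.76, SE 0.43, adjusted p = 0.00015). The Cd86 peak inside this costimulatory ligand gene (chr16:36635267-36635667) scored 68.4 and 52.1 against 184 and 193 (1.64, SE 0.29, adjusted p = 0.00075). Its BATFKO scores were near equal. The Tbk1 peak inside the gene of a kinase of innate immune signalling scored 39.1 and 26.5 against 100.2 and 77.0 (1.42, SE 0.27). Other rises by rule were at Tmem19, Gja1, Zfp970, Iigp1, Fam120a, Abcb1b and Akap13, between 1.16 and 2.29. Zfp970 belongs to a family of near-identical zinc finger genes, so reads there may be shared between copies. The call at Tbk1 was lost without WT Treg library 2 or BATFKO Treg library 1. Against a 1.5-fold change, the calls at Cd86 and at all the other rises named here except Sfmbt2 were lost. Without WT Treg library 1, 6 of the 43 higher peaks were still called higher, and without BATFKO Treg library 1, 4.

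The lower peaks were then followed in libraries that the comparison had not used. In eTreg they were wide open, with a median score of 147 and 143, and in cTreg they scored 16.9 and 17.6. The medians in WT Treg were 79.4 and 62.3, and those in BATFKO Treg 15.5 and 13.9. WT Treg and BATFKO Treg chose these peaks, which by itself raises the WT Treg medians and lowers those of BATFKO Treg. The place of these medians beside those of eTreg and cTreg therefore cannot be read as a result. Of the 989 lower peaks 925 (93.5%) were called higher in eTreg than in cTreg, where 19.7% of all peaks were called higher and 17.4% lower, and 1 was called lower. Their median change between eTreg and cTreg was 2.91, against 0.03 for all peaks. The comparisons share no library, but all 26 libraries gave 1 estimate of the spread per peak.

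Conventional cells carried the same distinction. The median score of the lower peaks was 81.9 and 79.2 in Teff, and 8.94 and 10.4 in Tnaive. Of the 989, 866 (87.6%) were called higher in Teff than in Tnaive (20.7% of all peaks) and 7 lower (19.6% of all peaks). In Tconv, which were not divided into naive and effector cells, the medians were 24.5 and 24.99. By their medians these sites were thus more open in effector than in resting cells of both lineages. The upper quartiles of the lower peaks were 48.9 and 49.6 in cTreg, and some falls were at sites open there too, as at the Ikzf2 peak named above (559 and 487 in cTreg).

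DKO Treg gave a second setting without BATF. With mock virus the lower peaks had medians of 15.8 and 14.7, and with Foxp3 alone 16.1 and 16.9. By their labels the DKO libraries were omniATAC-seq and those of BATFKO Treg ATAC-seq, so their levels cannot be compared directly. The lower quartile of all peaks was 13.7 and 12.7 with mock virus, against 21.6 and 22.7 in BATFKO Treg. With BATF alone the medians were 73.0 and 73.9, and with Foxp3 and BATF 117 and 150. Of the 989, 732 (74.0%) were called higher with BATF than with mock virus, where 3.2% of all peaks were higher and 0.291% lower, and none was called lower. With Foxp3 and BATF against Foxp3, 887 (89.7%) were called higher, where 10.6% of all peaks were higher and 7.54% lower. The Nrp1 peak named first scored 35.8 and 37.1 with mock virus and 350 and 351 with BATF.

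**Figure D4:**
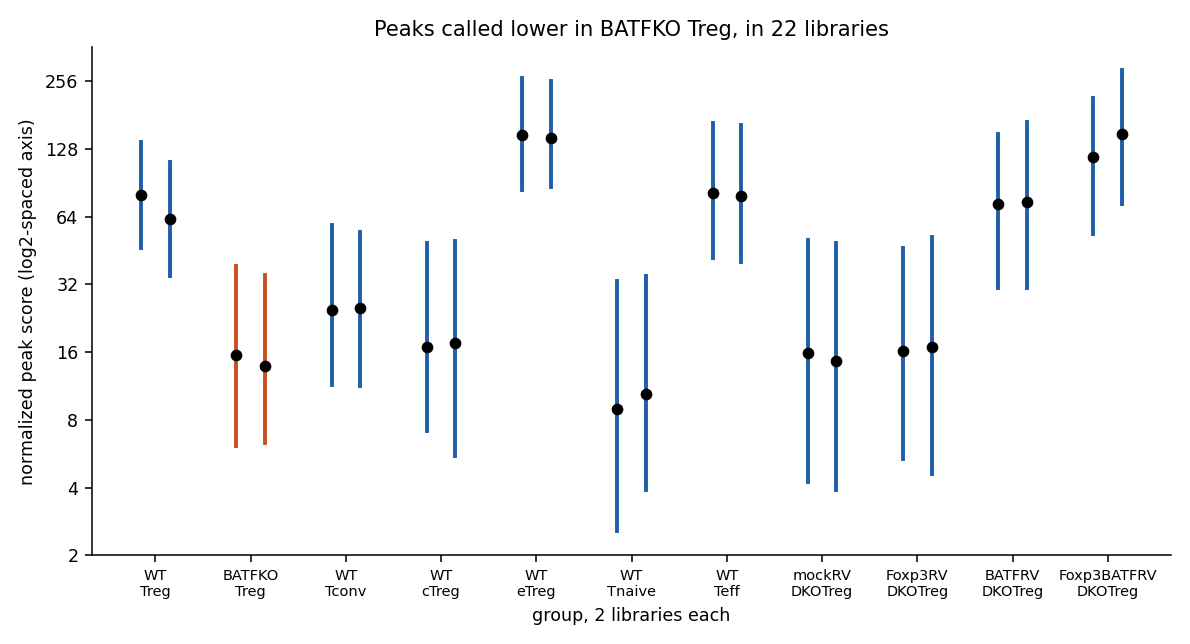
Median (black point) and quartiles (bar) of the normalized scores of the 989 lower peaks in each of 22 libraries, 2 per group, on a log2-spaced axis; BATFKO Treg are in orange, and the 4 libraries of Foxp3R397W Treg and its control are not shown. WT Treg and BATFKO Treg chose these peaks. Among the other groups shown, eTreg, Teff and the DKO Treg with BATF are high, and cTreg, Tnaive and the DKO Treg without BATF are low. By their labels the DKO libraries were omniATAC-seq. In the libraries not shown the medians were 27.0 and 28.2 (Foxp3R397W Treg) and 56.9 and 55.5 (its control). The names of those 4 differ in the other deposited table.

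Not every lower peak was called higher when BATF was returned alone. The 257 peaks that were not called between BATF and mock virus had a median change of 0.69 there, against -0.04 for all peaks. Their median scores were 30.4 with mock virus and 55.7 with BATF. Of the 257, 174 were called higher with Foxp3 and BATF than with Foxp3. The median fall of the 257 in BATFKO Treg was -1.68, against -2.09 for the 732 called higher with BATF alone. The 257 were more open without BATF, with a median mock score of 30.4 against 12.3.

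The reverse view started from the effector sites. Of the 13632 peaks called higher in eTreg than in cTreg, 925 (6.79%) were lower in BATFKO Treg and 10 higher, with a median change of -0.30. The share was larger with the size of the eTreg step: 1.68% of those with a log2 step up to 1, 3.56% from 1 to 2, 6.95% from 2 to 3, 12.4% from 3 to 4 and 24.6% above 4. Of the 12050 peaks lower in eTreg, 1 was lower and 10 were higher in BATFKO Treg, with a median change of 0.14. The Ccr7 peaks summed to 1365 and 2125 in WT Treg and to 1736 and 2322 in BATFKO Treg, so the groups overlapped. Its part in the result was not tested.

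Sites that differed between eTreg and cTreg were then divided by their response to BATF in DKO Treg. Of the 1742 peaks that were higher both in eTreg than cTreg and with BATF than mock virus, 694 (39.8%) were lower in BATFKO Treg, with a median change of -1.34. Of the 11869 that were higher in eTreg and not called with BATF against mock virus, 231 (1.95%) were lower, with a median of -0.22. Among all peaks 79.2% changed by no more than 0.5 in either direction, and among those higher in eTreg 56.5%. The share was smaller among the 979 peaks with the largest eTreg step, of which 224 (22.9%) changed so little. A site inside Scfd2 was among these. It scored 80.7 and 66.3 in WT Treg and 105 and 54.3 in BATFKO Treg (0.05, SE 0.39), with a step of 7.14 between cTreg and eTreg. A site inside Ppfibp2 scored 159 and 93.9 against 133 and 83.4 (-0.21, SE 0.27), with a step of 5.50. These were chosen for their small change in BATFKO Treg, so the values are a description.

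**Figure D5:**
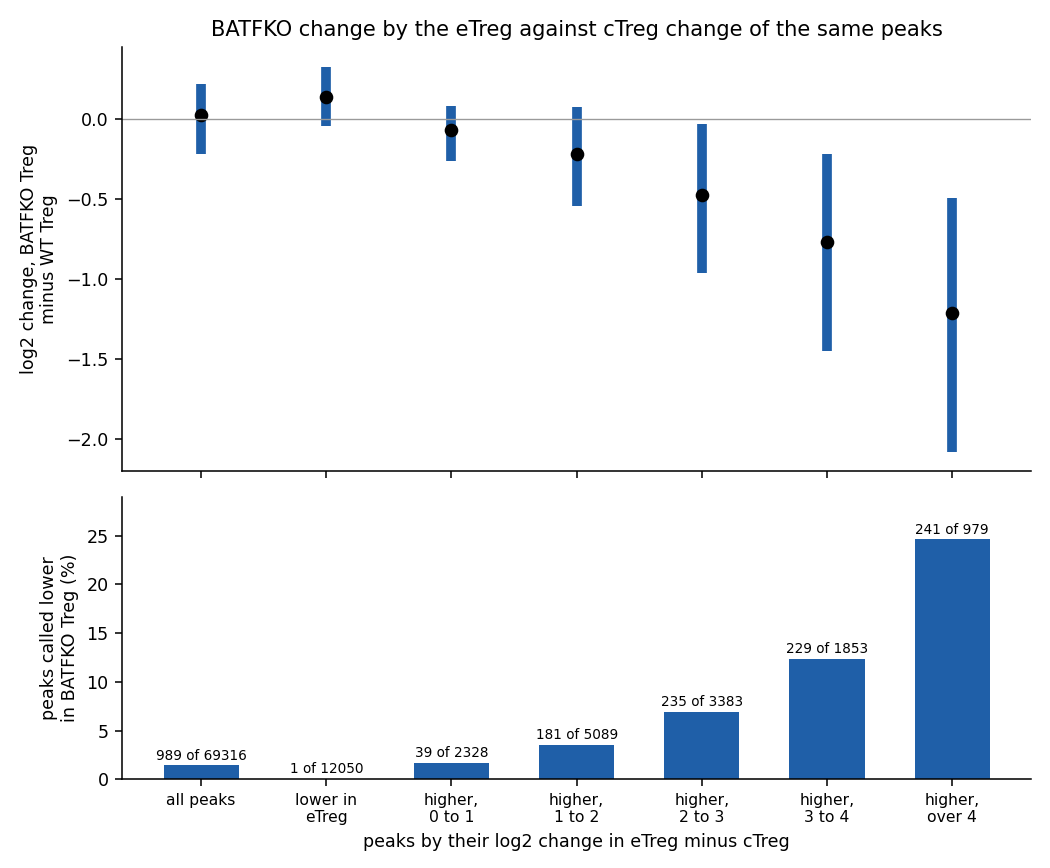
Upper panel, median (point) and quartiles (bar) of the log2 change in BATFKO Treg for all peaks, for peaks called lower in eTreg than cTreg, and for peaks called higher in eTreg, by the size of that log2 step; lower panel, the percentage of each set called lower in BATFKO Treg, with counts. The median goes from -0.06 at the smallest steps to -1.21 at the largest, and the share called lower from 1.68% to 24.6%.

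The 43 higher peaks were followed in the same libraries. Of these, 10 (23.3%) were called higher and 10 (23.3%) lower in eTreg than in cTreg, against 19.7% and 17.4% of all peaks. In Teff against Tnaive 15 (34.9%) were higher and 12 (27.9%) lower, against 20.7% and 19.6% of all peaks. None was higher and 2 (4.65%) were lower with BATF than with mock virus, against 3.2% and 0.291%. With Foxp3 and BATF against Foxp3, 1 (2.33%) was higher and 9 (20.9%) were lower, against 10.6% and 7.54%.

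A small set of 64 lower peaks was not called higher in eTreg than in cTreg. The median of their mean scores was 108 in eTreg and 83.7 in cTreg. Of the 64, 38 were called higher with BATF than with mock virus, where 3.2% of all peaks were higher. Besides the pair at Batf, 62 lower peaks were in this set. One was a Churc1 peak at chr12:76778546-76778946, 8.91 Mb from the Batf promoter peak. It scored 335 and 160 in WT Treg and 12.7 and 15.2 in BATFKO Treg (-3.97), and at least 43.7 in each of the 24 other libraries. Of the 62, 6 (9.68%) lay on chromosome 12, which held 4.62% of all peaks outside Batf, and 5 (8.06%) lay within 20 Mb of Batf, which held 1.95%. These 5 were at Churc1, Rad51b, Pygl and Nin, and 1 of the 6 was called higher with BATF than with mock virus. Of all peaks within 10 Mb of Batf, its own left out, 11 of 669 were lower (1.64%). Over the whole of chromosome 12, Batf included, 71 of 3209 were lower (2.21%), the highest share of the 20 chromosomes. That count holds the 2 lower Batf peaks, and chromosome 18 was near it with 44 of 2037 (2.16%).

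Marker genes of other cells were read as well. The 74 peaks of CD4 T cell markers held no call with limma (3 lower and 0 higher at an unadjusted p under 0.05) and summed to 7318 and 8271 in WT Treg and 7603 and 8047 in BATFKO Treg. A peak inside Themis, a T cell signalling gene of this list, was called lower with edgeR and DESeq2 (122 and 65.3 against 24.4 and 31.6). With limma no called peak was found among CD8 and NK cell markers (0 of 39), erythroid markers (0 of 6) or housekeeping genes (0 of 37). At an unadjusted p under 0.05 these lists held 0, 0 and 1 lower and 3, 0 and 1 higher peaks. With edgeR and DESeq2 the only call in them was a higher peak near Klrb1c, an NK cell receptor gene (12.2 and 18.4 against 89.7 and 23.995), where BATFKO Treg library 1 stood far above library 2. The CD8 and NK cell list summed to 2436 and 2551 in WT Treg and 2932 and 2818 in BATFKO Treg, higher in the latter. Of the B cell markers 1 of 20 peaks fell, inside Pax5 (64.8 and 59.2 against 9.96 and 5.05), and the list summed to 1358 and 1094 against 1142 and 998. Of the myeloid markers 2 of 33 fell, both at Cebpa, and the list summed to 1891 and 2223 against 1901 and 2131. Ms4a1, Cd79a, Csf1r, Adgre1, Cd68, Hba-a1 and Hbb-bs had no assigned peak. The falling Pax5 and Cebpa sites were high in eTreg (132 and 91.8 on average) and low in cTreg (11.5 and 1.88). The part of other cells in the results was not tested beyond these values.

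WT Treg libraries held 6816236 and 8192609 reads in peaks and BATFKO Treg libraries 15420885 and 6685297. The median standard error of a log2 change was 0.34. At an unadjusted p under 0.05, 3944 peaks were lower and 1885 higher.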

How the data were processed

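ATAC-seq or, in some groups, omniATAC-seq was used. By their labels WT Treg, BATFKO Treg and Tconv were ATAC-seq and the DKO Treg omniATAC-seq. Of 2 deposited tables of signal (a normalized score per peak and library), the one with 26 libraries and 69316 peaks was used, since it holds the groups followed here. Per the submitters' processing notes the authors worked on mm10. These notes name DiffBind (3.0.15, 3.4.11), edgeR (3.36.0, 3.38.4), Bowtie2 (2.4.1) and MACS2 (2.2.7.1). How these were set is not given in the sources used here. In each library 100% of scores were a whole number of reads (within 0.02) times 1 factor, and most peaks (99.7%) were 401 bp wide. The libraries held 3716499 to 25462278 reads in peaks, which sets their precision.

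Scores plus 1 were taken to log2 and fitted with limma 3.58.1 (lmFit, contrasts.fit, eBayes with trend and robust options, R 4.3.3), with 13 groups in 1 fit (13 residual degrees of freedom). This scale understates changes of low peaks. Benjamini-Hochberg adjustment ran over all peaks, with a threshold of 0.05. The fit was tested on simulated data. Recovered reads were also tested with edgeR 4.0.16 (quasi-likelihood) and DESeq2 1.42.0. A peak took the closest protein-coding gene up to 100 kb away, by RefSeq on GRCm38.p6, which gave 65186 peaks a gene. Columns named as Foxp3 wild-type Treg were read as the Foxp3R397W control, a reading made after seeing the table. They served the shared spread, the medians given for that control and the lowest score given at Churc1. Whether the libraries that the 2 tables name differently were ATAC or omniATAC is not settled.

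Named peaks were all Batf peaks, the 15 largest falls and 10 largest rises above the median score without overlap (1 per gene), the 3 genes of smallest p in each of 19 lists (13 pathway, 6 marker), 14 fixed genes, and genes with at least 5 called peaks. Names outside that rule (other lower peaks of the lists, Scfd2, Ppfibp2, Churc1, promoters with a motif) were picked after their values were seen. The comparison and the lists were chosen with earlier results of these data known. Promoter windows were matched for 79.9% of genes. Windows and peaks count from 1. A few list genes are not reported here.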

Additional observations from a re-analysis of the deposited data

How the results depend on the processing

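Counts below are of peaks called in all, lower and higher, against 1032, 989 and 43. With a pseudocount of 5 they were 1600, 1484 and 116, with quantile scaling 2511, 2007 and 504, against a 1.5-fold change 356, 353 and 3, with edgeR 1914, 1759 and 155 and with DESeq2 1643, 1511 and 132. With the 4 libraries alone 94 were higher, and 77 in the other deposited table. Of the 989 lower peaks, 989 were also called lower with quantile scaling, 986 with a pseudocount of 5, 981 with edgeR, 976 with DESeq2, 882 with the 4 libraries alone, 864 with a pseudocount of 0.5, 353 against a 1.5-fold change and 331 to 645 without 1 library. Leaving out 1 library gave 347 to 782 calls, 333 to 700 lower and 9 to 94 higher. The lowest total was without WT Treg library 1, and without BATFKO Treg library 2 it was 659. The lower peaks of the pathway lists, 62 as reported, were 113 with quantile scaling, 22 against a 1.5-fold change, 30 for genes within 10 kb, and 25 to 48 without 1 library. The labels do not say that equal replicate numbers pair libraries; deviations of equally numbered libraries correlated at 0.16 over peaks, and a replicate block gave 1069 calls, 1009 lower and 60 higher.

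Of the lower peaks, the share higher in eTreg than cTreg was 98.0% for those past a 1.5-fold change and 86.7% with quantile scaling. For Teff against Tnaive it was 94.1%, 73.0% and, with a pseudocount of 5, 84.2%. For BATF against mock virus these were 91.2%, 46.2% and 65.8%, and for Foxp3 and BATF against Foxp3 96.6%, 73.0% and 86.1%. Within 1 kb of a gene end lay 2.27% of the lower peaks past a 1.5-fold change. No result reversed under these alternatives. Of 59 named peaks called, 25 were lost against a 1.5-fold change, 19 without WT Treg library 1, 16 without BATFKO Treg library 1, 11 without WT Treg library 2 and 8 without BATFKO Treg library 2. Named peaks not called as reported were gained under 10 alternatives: 14 with quantile scaling, 5 with edgeR, 4 with DESeq2, 4 in the other deposited table and 3 or fewer elsewhere. The cause was not tested.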
